A study of Mus musculus with 8 samples.

Results

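Genes of MHC class I antigen presentation were followed in bEnd3, an endothelial line from mouse brain, with and without corticosterone. They are the classical heavy chains H2-K1 and H2-D1, the nonclassical heavy chains H2-Q4 and H2-T23, the light chain B2m, the peptide transporter subunits Tap1 and Tap2, the loading protein Tapbp, the immunoproteasome subunit Psmb8 and the transcription regulator Nlrc5. These 10 genes were chosen by name, and all were found by gene identifier among the 35852 genes of the count table. 9 passed the filter on low counts, and Nlrc5 did not.

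The study compared 4 RNA-seq libraries of cells given 5 µM corticosterone, the main glucocorticoid hormone of mice, for 24 h with 4 libraries of cells kept in culture medium. Both groups are the same line, from poly(A)-selected RNA and directional libraries. Groups were taken from the titles and the treatment field, since the protocol text of the medium libraries names corticosterone too, and a vehicle is nowhere mentioned. Nothing states that the replicates were separate cultures, so the p-values reflect only the scatter among these libraries. bEnd3 cells were immortalised with the polyoma middle T antigen and come from BALB/c mice, whose class I alleles (the d haplotype, with an H2-L gene) differ from those of the C57BL/6 reference (the b haplotype). How this touched the counts was not tested.

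Totals were 19.7 to 46.2 M estimated counts a library (M is 1e+06). The program that assigned the reads, kallisto, works with an effective length for each transcript. Over 61001 transcripts of at least 1000 nt, this was 1 nt above the full length for 100% in corticosterone replicates 1 and 2 and for 0% in each remaining library. The members are therefore described in all 8 libraries and again in the 6 without those 2. Other genes are given for the 8, with the 6 where a count or call differs. The endothelial label held: 10 of 10 endothelial markers had a mean of at least 1 CPM (counts per 1e+06 of the library), with sums of 8913 to 9239 CPM under corticosterone and 8106 to 8590 CPM in medium. Of 8 leukocyte markers 6 were under 1 CPM, among them Ptprc, and the sums were 17.8 to 19.8 and 18.8 to 20.6 CPM, mostly Cd68. Of 8 pericyte and fibroblast markers 6 were under 1 CPM, and the sums were 6.10 to 7.13 and 20.7 to 22.7 CPM. That sum was lower in all 4 corticosterone libraries, Pdgfra, Pdgfrb and Col1a1 fell (Pdgfrb not in the 6, adjusted p = 0.0539), and their part in the results below was not tested. The glucocorticoid targets Fkbp5 (log2 fold change 2.77 ± 0.035, SE) and Tsc22d3 (1.95 ± 0.049) rose, as a check of the group labels.

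MHC class I molecules show peptides from inside the cell to CD8+ T cells. Proteasomes cut the peptides, the Tap1-Tap2 transporter moves them into the endoplasmic reticulum, and tapasin (Tapbp), with calreticulin and Pdia3, holds an empty heavy chain with B2m until a peptide binds. In brain endothelium these molecules stand at the blood-brain barrier, where passing T cells meet them. Interferon-gamma is the best known inducer of the pathway, and NLRC5 is its dedicated transactivator.

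The heavy chains are near copies of each other in part of their length, which bears on how far counts can separate them. The longest coding run that H2-D1 and H2-K1 share was 91 bases, in exon 4, which encodes the membrane-proximal domain that CD8 binds. It is shown because all 61 of its 31-mers (the words by which kallisto matches reads) are the same in both genes, so a read within it cannot be told apart. Capitals mark bases that differ from H2-D1, and each sequence is written 5′ to 3′ in the direction of the gene, from GENCODE M21 on GRCm38.
H2-D1, chr17:35265911-35266001, plus strand: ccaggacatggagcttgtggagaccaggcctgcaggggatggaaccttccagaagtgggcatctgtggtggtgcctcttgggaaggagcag
H2-K1, chr17:33997343-33997433, minus strand: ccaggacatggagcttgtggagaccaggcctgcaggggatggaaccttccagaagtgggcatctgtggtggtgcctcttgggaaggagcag
H2-Q4, chr17:35382985-35383075, plus strand: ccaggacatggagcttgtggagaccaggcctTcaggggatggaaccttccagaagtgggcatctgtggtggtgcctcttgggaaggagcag
H2-T23, chr17:36030880-36030970, minus strand: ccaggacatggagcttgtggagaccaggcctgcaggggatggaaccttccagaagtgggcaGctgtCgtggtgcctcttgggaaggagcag
H2-Q4 differed from H2-D1 at 1 base of the run and kept 30 of the 61 31-mers. H2-T23 differed at 2 bases and kept 31. Over whole genes the share of 31-mers found in no other gene was 78.2% for H2-K1, 73.3% for H2-D1, 61.4% for H2-Q4 and 74.7% for H2-T23. It was 95.3% to 100% for B2m, Tap1, Tap2, Tapbp, Psmb8 and Nlrc5, so the heavy chains shared more sequence than the other members.

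Corticosterone went with small changes in this gene set, and in both directions. In all 8 libraries H2-T23 rose and H2-Q4 and B2m fell, while H2-K1, H2-D1, Tap1, Tap2, Tapbp and Psmb8 did not pass the test. So 1 of the 9 tested genes rose and 2 fell at an adjusted p under 0.05 (edgeR quasi-likelihood test, Benjamini-Hochberg over all genes). Of all 13272 genes tested, 40.1% were called, 19.5% higher and 20.6% lower, so the members' calls were close to the background. Their median log2 fold change was 0.10, against -0.0046 over all genes tested. The 2 groups did not overlap in 3 of the 9 genes, against 39.9% of all genes. In bulk RNA, fewer cells of a type and less RNA per cell cannot be told apart.

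Without corticosterone replicates 1 and 2, H2-D1 joined the rises. In these 6 libraries 2 genes (H2-D1 and H2-T23) rose, 2 (H2-Q4 and B2m) fell and 5 did not pass. Of all 13639 genes tested there, 36.4% were called, 18.4% higher and 18.0% lower, and the members' median log2 fold change was 0.0036 against 0.0032. The groups did not overlap in 7 of the 9 genes, against 50.7% of all genes with 2 libraries in the corticosterone group, on CPM scaled over these 6. Tap2 is 1 of the 7 only on that scale, and its groups overlap on the CPM scaled over all 8.

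**Figure D1:**
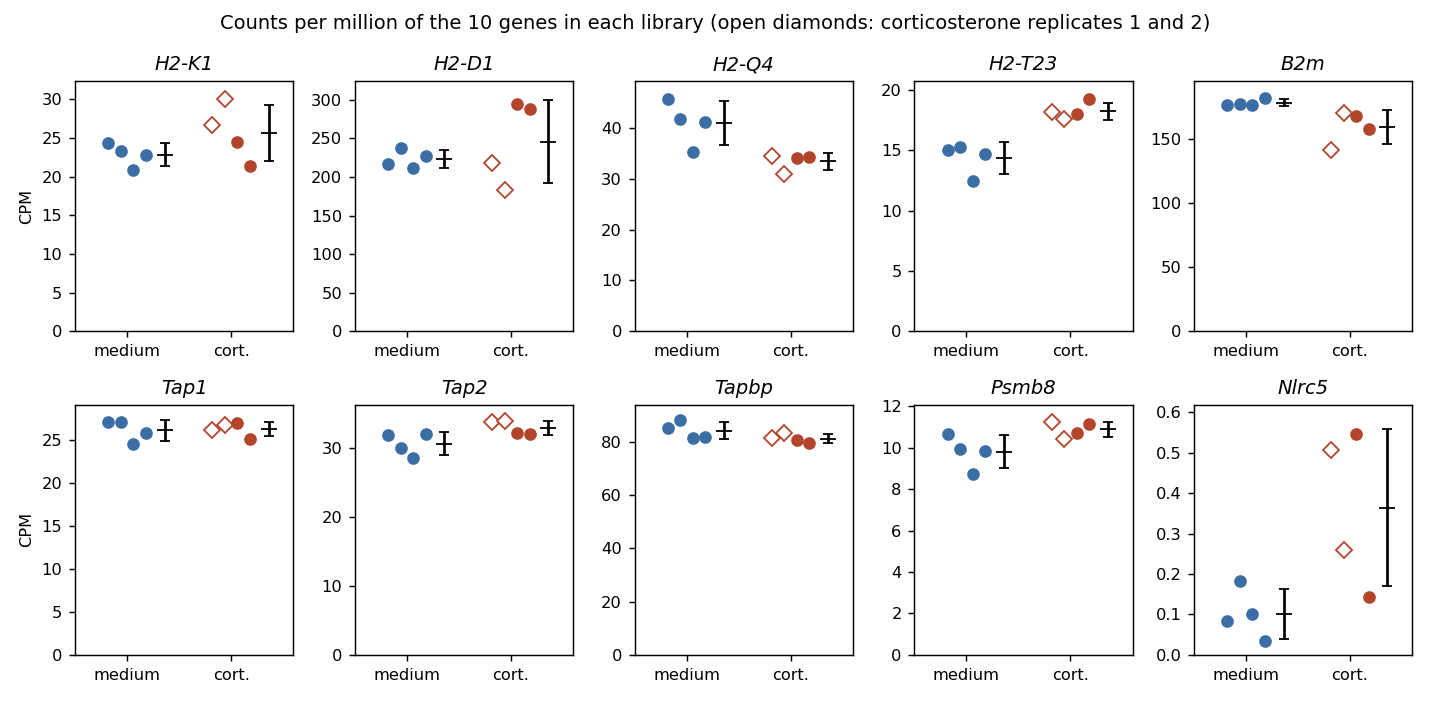
CPM of the 10 genes (vertical axes, each from 0) in the 4 medium and 4 corticosterone (cort.) libraries, 1 point a library, with mean and SD bars. Open diamonds are corticosterone replicates 1 and 2: for H2-D1 they lie at 218 and 183 CPM, below the 294 and 288 CPM of replicates 3 and 4, while H2-T23 is higher and H2-Q4 and B2m are lower in all 4 than in any medium library.

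Of the classical heavy chains, which present peptides to CD8+ T cells, H2-D1 (chr17:35262730-35267499, plus strand) had the higher counts. Under corticosterone its libraries held 218, 183, 294 and 288 CPM, for replicates 1 to 4, and in medium 217, 238, 212 and 228 CPM. How the d-haplotype alleles and the H2-L gene of these cells touched the order of H2-D1 and H2-K1 was not tested. Replicates 3 and 4 lay above every medium library, replicate 1 lay within the medium range and replicate 2 below it. In 8 libraries the means were 246 ± 54.3 and 223 ± 11.6 CPM (SD, n = 4), and the log2 fold change was 0.14 ± 0.17 (SE, adjusted p = 0.565). In the 6 libraries it was 0.38 ± 0.038 (adjusted p = 6.43e-07), a 1.31-fold higher level. With all 8 libraries and an added term that sets replicates 1 and 2 apart it was 0.38 (adjusted p = 0.00647), and leaving out single libraries brought no call. The rise of H2-D1 thus stands on 2 corticosterone libraries, and 2 others measured with another effective length do not show it. Both pairs were given corticosterone, and why they differ was not tested. The rise is therefore not assigned to the treatment.

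The gap between corticosterone replicates was large for H2-D1. Replicates 3 and 4 averaged 291 CPM and replicates 1 and 2 averaged 201 CPM, a ratio of 1.45. A gap at least as large occurred in 8.26% of 13261 genes, and in 1.86% of the 2420 genes with a mean of at least 100 CPM. H2-D1 has 1 main transcript, H2-D1-202, which held at least 99.56% of its counts in each library, so this gap did not come with a change in its split between transcripts.

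H2-K1 (chr17:33996017-34000347, minus strand), the other classical heavy chain, held 26.7, 30.1, 24.5 and 21.4 CPM under corticosterone and 24.4, 23.3, 20.8 and 22.9 CPM in medium. Here replicates 1 and 2 were the high ones, replicate 3 lay just above the highest medium library, and replicate 4 lay within the medium range. The log2 fold change was 0.17 ± 0.098 (adjusted p = 0.216) in 8 libraries and 0.0036 ± 0.068 (adjusted p = 0.977) in 6. It passed the test in 1 case, without corticosterone replicate 4 (0.25, adjusted p = 0.0247). H2-K1 and H2-D1, which share the run above, thus had opposite gaps: for H2-K1, replicates 3 and 4 were at 0.809 times the level of replicates 1 and 2, a gap at least matched in 13.8% of genes.

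Since reads may move between near copies, the class I genes were also summed. Linking genes within 5 Mb by 31-mers in common (10% or more of those in the smaller gene) gave 1 family of 25 genes around H2-D1, of which 8 had a mean of at least 1 CPM. The family's sums were 348, 325, 420 and 415 CPM under corticosterone and 356, 373, 335 and 357 CPM in medium. The sum kept the pattern of H2-D1, which made up 56.6% to 70.0% of it: replicates 3 and 4 above medium, replicates 1 and 2 not. The log2 fold change of the sum was 0.085 ± 0.094 (adjusted p = 0.520) in 8 libraries, where 43.4% of genes and families were called, and 0.23 ± 0.035 (adjusted p = 2.54e-05) in 6, where 38.8% were. Without H2-D1 the family held 129, 141, 126 and 128 CPM under corticosterone and 139, 137, 123 and 130 CPM in medium, groups that overlapped. Corticosterone replicate 2, lowest for H2-D1, was highest in the rest of the family, but by less than its gap in H2-D1. It was high there in H2-K1 and in Gm10499, a predicted class I gene at 12.7 CPM in that library, 0.285 CPM in corticosterone replicate 1 and 2.06 to 4.62 CPM in the other 6.

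**Figure D2:**
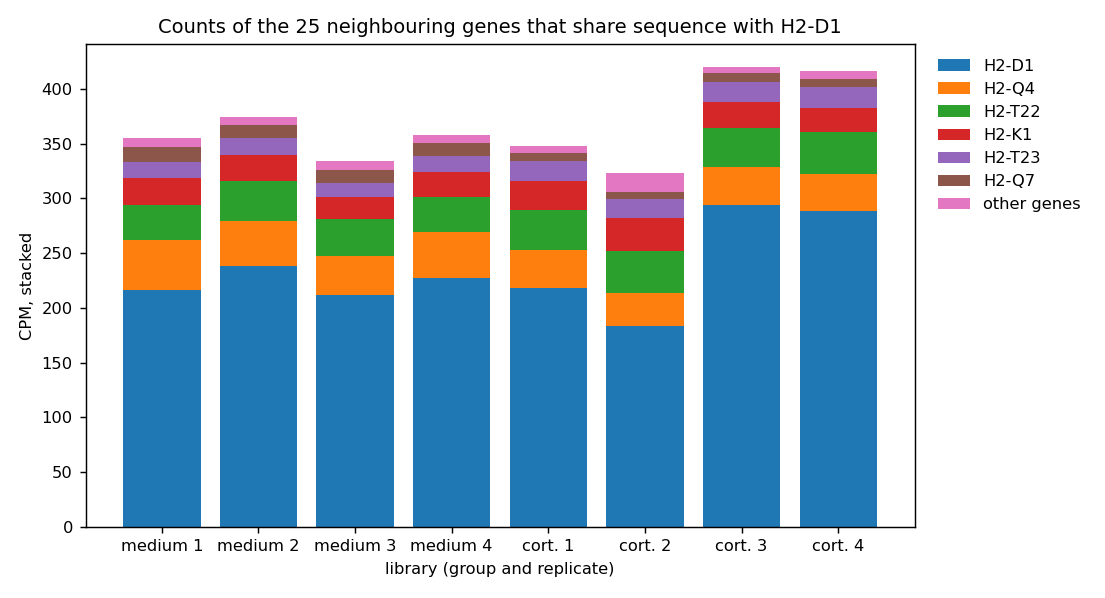
Stacked CPM (vertical axis) of the 25 neighbouring class I genes that share sequence with H2-D1, in each of the 4 medium and 4 corticosterone (cort.) libraries. H2-D1 is the lowest block, and the total reaches 420 and 415 CPM in corticosterone replicates 3 and 4 against 325 to 373 CPM in the other 6 libraries.

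The nonclassical heavy chains moved apart. H2-T23 encodes Qa-1, which presents leader peptides of other class I chains to the NKG2A receptor of natural killer and T cells. The gene (chr17:36029773-36032855, minus strand) held 18.2, 17.6, 18.0 and 19.2 CPM under corticosterone and 15.0, 15.3, 12.4 and 14.7 CPM in medium. Every corticosterone library was above every medium library, replicates 1 and 2 included. The log2 fold change was 0.34 ± 0.065 (1.27-fold higher, adjusted p = 0.00100) in 8 libraries and 0.36 ± 0.074 (adjusted p = 0.000741) in 6. On TPM in the 6 libraries, a unit per transcript length, the change was as large but missed the threshold (adjusted p = 0.0503, limma-trend).

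H2-Q4 (chr17:35379617-35385290, plus strand), a nonclassical chain known as Qb-1, went the other way. It held 34.5, 30.95, 34.1 and 34.4 CPM under corticosterone and 45.8, 41.9, 35.3 and 41.2 CPM in medium. The groups did not overlap, though medium replicate 3 came within about 1 CPM of the highest corticosterone library. The log2 fold change was -0.30 ± 0.072 (0.814-fold, adjusted p = 0.00746) in 8 libraries and -0.28 ± 0.089 (adjusted p = 0.0448) in 6. The call was lost with the added term for replicates 1 and 2 (adjusted p = 0.0598) and on TPM (adjusted p = 0.0819, limma-trend), with the sign kept.

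B2m, the light chain that every class I molecule needs, is unique in sequence (chr2:122147686-122153083, plus strand) and has 1 annotated transcript. It held 141, 170.0, 167 and 158 CPM under corticosterone and 177, 177, 176 and 182 CPM in medium. All 4 corticosterone libraries were below all 4 medium libraries, and replicate 1 was the lowest. The log2 fold change was -0.16 ± 0.052 (0.894-fold, adjusted p = 0.0329) in 8 libraries and -0.13 ± 0.032 (adjusted p = 0.00458) in 6. The call was lost when corticosterone replicate 4 (adjusted p = 0.0863) or medium replicate 1, 2, 3 or 4 (0.0770, 0.0732, 0.0736 and 0.0859) was left out, with the added term for replicates 1 and 2 (0.185), and with no filter on low counts (0.0842), while the sign was the same.

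**Figure D3:**
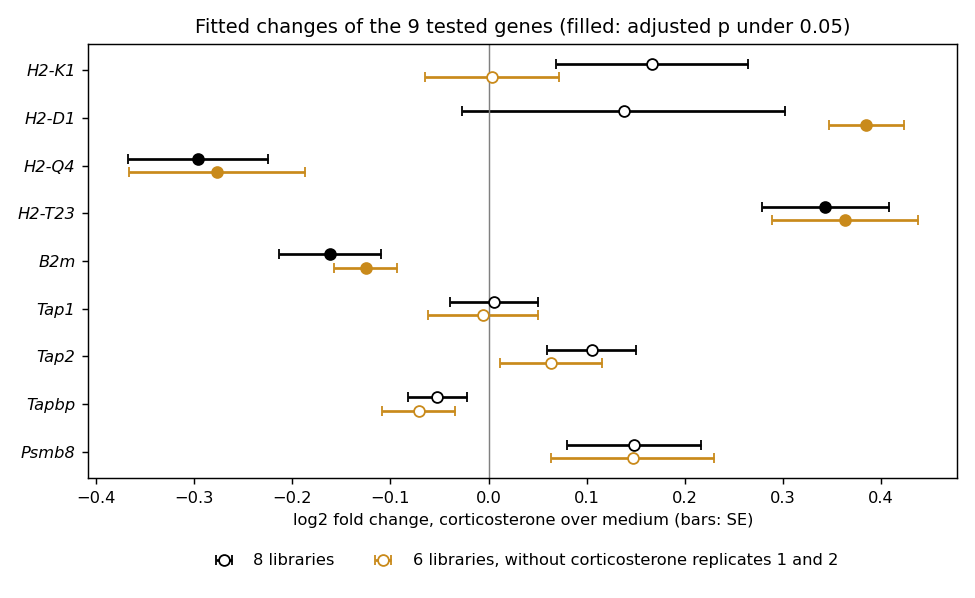
Log2 fold change, corticosterone over medium (horizontal axis), of the 9 tested genes with SE bars, in all 8 libraries (black) and in the 6 without corticosterone replicates 1 and 2 (ochre); filled points passed an adjusted p of 0.05. H2-D1 moves from 0.14 to 0.38 and H2-K1 from 0.17 to 0.0036, whereas H2-T23, H2-Q4 and B2m keep their sign and call.

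The peptide transporter genes did not pass the test. Tap1 (chr17:34187553-34197225, plus strand) and Tap2 (chr17:34203527-34216321, plus strand) together form the peptide transporter. Tap1 held 26.2, 26.7, 27.0 and 25.1 CPM under corticosterone and 27.1, 27.0, 24.6 and 25.8 CPM in medium, with groups that overlapped throughout. Its log2 fold change was 0.0057 ± 0.045 (adjusted p = 0.939) in 8 libraries and -0.0058 ± 0.056 (adjusted p = 0.955) in 6. Tap2 held 33.8, 33.8, 32.1 and 32.0 CPM against 31.9, 29.9, 28.6 and 32.0 CPM. The values for Tap2 were mostly above medium, with medium replicate 4 among them, and the log2 fold change was 0.10 ± 0.046 (adjusted p = 0.0882) in 8 libraries and 0.063 ± 0.052 (adjusted p = 0.386) in 6.

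Tapbp (chr17:33915899-33929292, plus strand), tapasin, held 81.5, 83.3, 80.5 and 79.5 CPM under corticosterone and 85.2, 88.2, 81.5 and 81.9 CPM in medium. Its groups overlapped, and the log2 fold change was -0.052 ± 0.030 (adjusted p = 0.191) in 8 libraries and -0.071 ± 0.038 (adjusted p = 0.156) in 6. Scaling by library size alone brought a call (-0.083, adjusted p = 0.0397). Psmb8 (chr17:34197721-34201454, plus strand), the LMP7 catalytic subunit of the immunoproteasome, held 11.2, 10.4, 10.7 and 11.2 CPM against 10.7, 9.94, 8.74 and 9.86 CPM. Medium replicate 1 lay among the corticosterone libraries and the others below them. The log2 fold change was 0.15 ± 0.068 (adjusted p = 0.106) in 8 libraries and 0.15 ± 0.083 (adjusted p = 0.191) in 6, and without medium replicate 1 it was 0.20 (adjusted p = 0.0499).

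Nlrc5 (chr8:94434356-94527272, plus strand), the class I transactivator, was near the limit of detection. Its libraries held 16, 7, 18 and 4 estimated counts under corticosterone and 4, 5, 2 and 1 in medium, or 45 against 12 in all. Most corticosterone libraries were higher, but the groups overlapped. In the fit with no filter on low counts the log2 fold change was 1.85 ± 0.58 (adjusted p = 0.0230), where 20.6% of 24332 genes were called and 10.7% were called higher. With so few counts its level rests on a handful of reads a library.

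Per unit length, the light chain had the highest level of the 10 genes. In medium, TPM were 469 ± 11.1 (SD, n = 4) for B2m, 173 ± 8.98 for H2-D1 and 59.3 ± 5.79 for Tapbp, and these 3 did not overlap each other or any gene below. H2-Q4 (36.1 ± 4.04 TPM) and H2-K1 (31.2 ± 3.24 TPM) overlapped each other. Psmb8 (20.6 ± 3.66 TPM), Tap2 (18.1 ± 1.03 TPM), Tap1 (18.1 ± 2.23 TPM) and H2-T23 (15.8 ± 1.68 TPM) followed, each overlapping the next, and Nlrc5 was at 0.170 ± 0.130 TPM. B2m was 2.72 times H2-D1, and H2-D1 was 2.92 times Tapbp. For the heavy chains these levels carry the limit of the alleles given above. In corticosterone replicates 3 and 4, whose TPM are on the same scale, B2m had 425 and 406 TPM and H2-D1 222 and 215 TPM.

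The split of counts between annotated transcripts set corticosterone replicates 1 and 2 apart for some members. In the other 6 libraries H2-K1-201, a coding transcript, held 63.0% to 70.7% of the H2-K1 counts. In corticosterone replicate 1 it held 0.00050% and in replicate 2 it held 15.7%. Replicate 1 had 42.2% on H2-K1-205 and replicate 2 had 28.2% on H2-K1-216, which held 15.0% to 19.8% and 0 to 2.9% elsewhere. For Tap1, Tap1-206 held 80.6% to 89.3% in the 6 libraries and 42.9% and 66.8% in replicates 1 and 2. For Psmb8, Psmb8-203 held 41.3% to 49.0% in the 6, but 17.8% in replicate 1 and 84.5% in replicate 2. For Tap2, the retained-intron transcript Tap2-202 held 71.2% to 83.3% in the 6, and 94.7% and 82.8% in replicates 1 and 2. For H2-K1, Tap1 and Psmb8 these shares differed between replicates 1 and 2 as well as from the other 6, including the 2 other corticosterone libraries. For Tap2, replicate 1 alone lay outside the range of the 6. For Tapbp, Tapbp-201 held 25.8% to 31.6% in the 6, and 19.8% and 20.1% in replicates 1 and 2. H2-D1 and B2m showed no such shift. For H2-Q4 and H2-T23, replicate 1 lay just outside the range of the 6 and replicate 2 within it. H2-Q4-201 held 80.6% in replicate 1, against 81.2% to 87.5% in the 6. H2-T23-201 held 87.5%, against 77.5% to 86.0%.

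**Figure D4:**
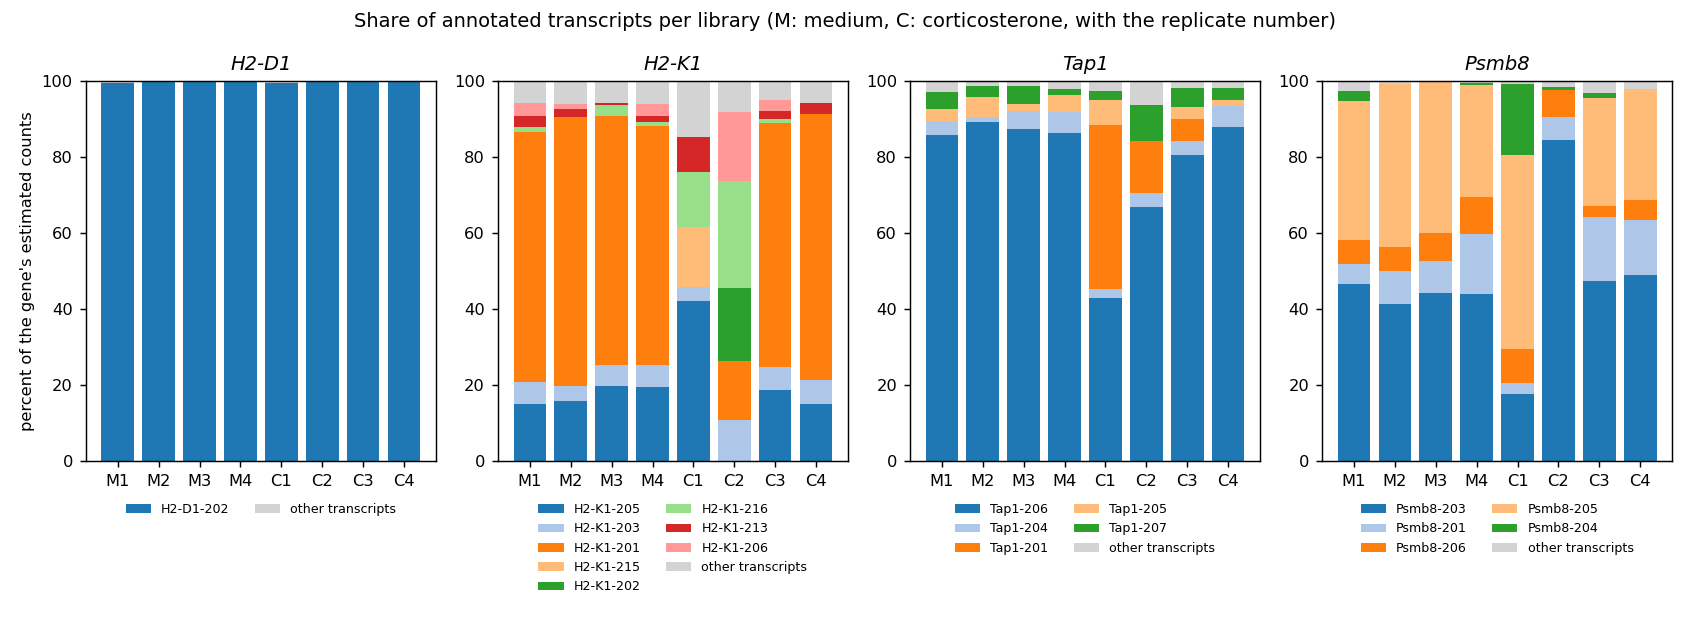
Percent of each gene's estimated counts (vertical axis) on its annotated transcripts, by library (M medium, C corticosterone, with the replicate number), for H2-D1, H2-K1, Tap1 and Psmb8. H2-D1 is 1 block throughout, while in C1 and C2 the blocks of the other 3 genes differ from those of the other 6 libraries.

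The wider pathway was read from lists by role. Of the 2 classical heavy chains none passed the test in 8 libraries. Of 22 listed nonclassical heavy chains, 19 were in the table and 10 were tested. Of these 10, 3 rose and 3 fell, where over all genes 19.5% were higher and 20.6% lower. The falls were in the Q region: beside H2-Q4, H2-Q7, which encodes Qa-2, fell from 12.5 ± 0.791 to 7.20 ± 0.535 CPM (log2 fold change -0.80 ± 0.073, adjusted p = 2.13e-06), and H2-Q6, at about 1 CPM, fell too (-0.77 ± 0.27, adjusted p = 0.0376), though not in the 6 libraries (adjusted p = 0.0564). The rises were in the T region: beside H2-T23, H2-T24 rose from 5.78 ± 0.337 to 8.94 ± 0.926 CPM (0.63 ± 0.088, adjusted p = 0.000100), and H2-T22 rose (0.15 ± 0.048, adjusted p = 0.0233). H2-T24 has 93.4% of its 31-mers to itself, H2-Q7 has 60.8%, H2-T22 has 48.3% and H2-Q6 has 48.2%. H2-T22 shares 47.0% of its 31-mers with H2-T10, so the split of counts between them is uncertain, as are those of H2-Q6 and H2-Q7. In the 6 libraries 3 nonclassical chains rose and 2 fell, where over all genes 18.4% were higher and 18.0% lower. The 4 nonclassical genes that did not pass were H2-Q10, H2-T10, H2-M3 and H2-M5.

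Class I-like molecules outside the MHC held the most abundant fall. Procr, the endothelial protein C receptor, whose fold resembles class I, went from 776 ± 22.2 to 485 ± 13.2 CPM (-0.68 ± 0.028, adjusted p = 1.22e-09). Hfe, a regulator of iron uptake that binds B2m, went from 15.3 ± 1.07 to 11.6 ± 1.05 CPM (-0.40 ± 0.073, adjusted p = 0.000803). The neonatal Fc receptor Fcgrt (0.15, adjusted p = 0.151) and Mr1 (-0.016, adjusted p = 0.871), which also pair with B2m, did not pass. Of 6 tested 2 fell and 0 rose, where over all genes 20.6% were lower and 19.5% higher.

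In peptide transport and loading, 5 of 13 genes rose and 1 fell, and in the 6 libraries 3 rose and 1 fell, where over all genes 19.5% were higher and 20.6% lower in 8 libraries and 18.4% and 18.0% in 6. Calr, the chaperone calreticulin, rose from 798 ± 22.4 to 1040 ± 15.8 CPM (0.38 ± 0.024, adjusted p = 8.17e-08). Pdia3 (ERp57), the disulphide isomerase of the loading complex, rose from 908 ± 11.4 to 1049 ± 24.0 CPM (0.21 ± 0.022, adjusted p = 9.72e-06). Lnpep (0.27, adjusted p = 3.45e-05), an aminopeptidase, Canx (0.087, adjusted p = 0.00904), calnexin, and Erap1 (0.13, adjusted p = 0.0328), the peptide-trimming aminopeptidase of the endoplasmic reticulum, rose as well. Canx and Erap1 did not pass in the 6 libraries (adjusted p = 0.0861 and 0.216). Besides Tap1, Tap2 and Tapbp, the genes Tapbpl, Tpp2, Uggt1 and Ganab did not pass. The fall, Ide (-0.089, adjusted p = 0.0365), was lost when any single library but corticosterone replicate 1 was left out, with adjusted p of 0.0529 to 0.133.

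Of the listed immunoproteasome subunits and proteasome activators, 3 of 6 rose and 0 fell in 8 libraries and 2 rose in 6, beside the same shares over all genes. Psmb10 (MECL-1) rose from 14.2 ± 1.09 to 17.04 ± 0.410 CPM (0.26 ± 0.058, adjusted p = 0.00284). Psme3 rose by 0.094 ± 0.025 on the log2 scale (adjusted p = 0.0102), a call lost with scaling by library size (0.0653) and on TPM (0.554, limma-trend). Psme2 rose by 0.098 ± 0.030 (adjusted p = 0.0201), a call that was lost without corticosterone replicate 1 (adjusted p = 0.0610), corticosterone replicate 4 (0.0548) or medium replicate 2 (0.0546), and in the 6 libraries (0.0524). The Psme2 call was also lost with scaling by library size (0.0975), with the term for replicates 1 and 2 (0.0609) and on TPM (0.286, limma-trend). It passed in 11 of 20 alternatives. Psmb8 and Psmb9 (0.14, adjusted p = 0.483), the other catalytic subunits, did not pass, nor did any of the 3 constitutive subunits Psmb5, Psmb6 and Psmb7.

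Of 14 tested regulators of class I transcription, 7 fell and 0 rose, where 20.6% of all genes tested were lower and 19.5% higher. Nlrc5, on this list too, is not among the 14 and was higher in the fit without a filter. The median log2 fold change of the 14 was -0.11 against -0.0046 over all genes, and in the 6 libraries 6 fell and 0 rose. Ezh2, the enzyme of the repressive H3K27 methylation mark, fell from 83.9 ± 1.43 to 67.2 ± 1.29 CPM (-0.32 ± 0.025, adjusted p = 5.73e-07). Rela, the p65 subunit of NF-kappaB, fell from 90.1 ± 2.01 to 79.1 ± 1.78 CPM (-0.19 ± 0.026, adjusted p = 0.000100), and Nfkb1 fell by 0.11 (adjusted p = 0.00173). All 3 subunits of NF-Y, which binds the CCAAT box, fell: Nfya by 0.13 (adjusted p = 0.0295), Nfyb by 0.23 (adjusted p = 0.000869) and Nfyc by 0.17 (adjusted p = 0.00158). Nfya did not pass in the 6 libraries (adjusted p = 0.107). Atf1, of the CREB family, fell by 0.15 (adjusted p = 0.00488). Rfx5, Rfxap and Rfxank, which form the RFX complex, and Irf1, Irf2 and Irf8 did not pass.

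**Figure D5:**
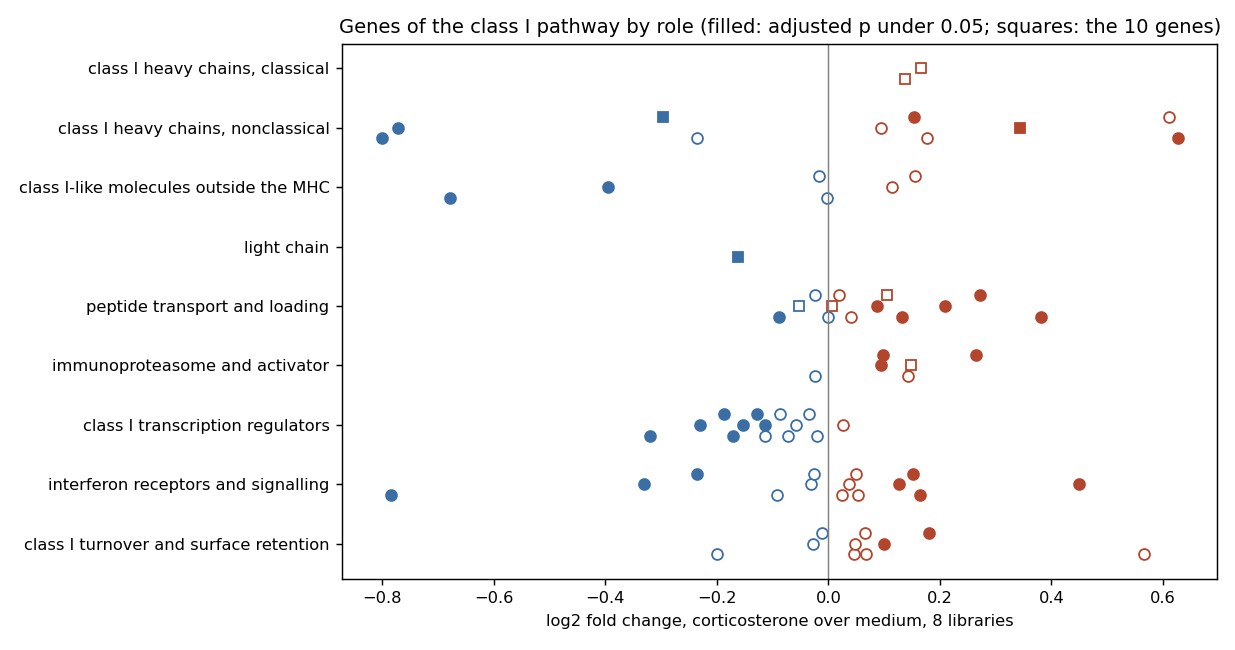
Log2 fold change, corticosterone over medium in 8 libraries (horizontal axis), of each tested gene of the class I lists by role; filled symbols passed an adjusted p of 0.05 and squares are the genes followed here. Among the regulators 7 filled points lie below 0 and none above, while the nonclassical chains have 3 on each side.

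In interferon signalling, 4 of 14 genes rose and 3 fell in 8 libraries, and as many in 6, beside 19.5% higher and 20.6% lower over all genes in 8. The interferon-gamma receptor chain Ifngr2 rose from 46.9 ± 2.21 to 64.1 ± 1.46 CPM (0.45 ± 0.036, adjusted p = 6.43e-07) and its partner Ifngr1 rose by 0.16 ± 0.038 (adjusted p = 0.00390). Jak2, the kinase on Ifngr2, fell from 52.0 ± 0.778 to 41.3 ± 1.52 CPM (-0.33 ± 0.033, adjusted p = 5.61e-06), and Socs3, a feedback inhibitor of cytokine receptors, fell from 14.0 ± 0.961 to 8.14 ± 0.971 CPM (-0.78 ± 0.087, adjusted p = 1.26e-05). Tyk2 (0.15, adjusted p = 0.00585) rose and Ifnar2 (-0.24, adjusted p = 0.000909) fell. On TPM in the 6 libraries Socs3 missed the threshold (-0.39, adjusted p = 0.10, limma-trend).

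Of 10 tested genes of class I turnover and surface retention, 2 rose and 0 fell, a share of rises close to the 19.5% over all genes, and in the 6 libraries 3 rose, with Sel1l (adjusted p = 0.0476). Susd6 rose by 0.18 ± 0.025 on the log2 scale (adjusted p = 0.000100) and Tmem127 by 0.099 ± 0.028 (adjusted p = 0.0142). On TPM in the 6 libraries neither passed (adjusted p = 0.112 and 0.413, limma-trend), and Tmem127 also missed the threshold with scaling by library size (0.0973). Both belong to a complex known to send class I molecules for degradation, with Wwp2 (-0.011, adjusted p = 0.790) as its ligase. The MHC class II pathway was all but silent: 12 of 12 genes had a mean under 1 CPM, and the 1 tested, H2-DMa, did not pass (adjusted p = 0.554).

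Promoter windows were searched for the motifs of class I control. RefSeq (GRCm38.p6) gave the 250 bases before the start for 8 of the 10 genes, not for Tap2 and Nlrc5. For H2-K1 it listed 2 windows, and the first was used. CCAAT, the NF-Y box, occurred on either strand in 7 of the 8, against 33.8% of 32851 windows of all genes. GGGATTCCC, the core of the NF-kappaB site of enhancer A, occurred in H2-K1 and H2-D1, against 0.301% of windows, and GAAANNGAA, an interferon response motif, in H2-T23 and B2m, against 7.13%. TGACG, the core of the CREB site, occurred in 5 of the 8, against 17.8%. ACANNNTGT, the core of the palindromic glucocorticoid response motif, occurred in 0 of the 8, against 5.84%, which says only that these letters are not in these windows. For every motif only the exact string was searched, so a window without a match may still hold a site. Similar strings were not counted, such as gggatttccc in the H2-Q4 window and tttcacttc in those of H2-K1 and H2-Q4. The motifs were chosen as those of class I control, so their presence here is a description and no test. 3 windows are shown as examples of a classical chain, a nonclassical chain that fell and the light chain, with matches to CCAAT, GGGATTCCC and GAAANNGAA, on either strand, in capitals, and no matches overlapped each other.
H2-K1, chr17:34000348-34000597, minus strand: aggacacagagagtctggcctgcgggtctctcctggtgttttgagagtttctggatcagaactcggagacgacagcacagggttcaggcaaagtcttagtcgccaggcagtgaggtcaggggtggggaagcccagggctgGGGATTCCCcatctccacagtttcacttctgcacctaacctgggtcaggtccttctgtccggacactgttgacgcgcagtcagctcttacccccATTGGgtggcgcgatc
H2-Q4, chr17:35379367-35379616, plus strand: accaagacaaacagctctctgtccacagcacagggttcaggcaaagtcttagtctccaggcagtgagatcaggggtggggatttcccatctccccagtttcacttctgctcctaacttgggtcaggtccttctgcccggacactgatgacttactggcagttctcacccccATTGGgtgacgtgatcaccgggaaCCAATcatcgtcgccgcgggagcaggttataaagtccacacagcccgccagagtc
B2m, chr2:122147437-122147686, plus strand: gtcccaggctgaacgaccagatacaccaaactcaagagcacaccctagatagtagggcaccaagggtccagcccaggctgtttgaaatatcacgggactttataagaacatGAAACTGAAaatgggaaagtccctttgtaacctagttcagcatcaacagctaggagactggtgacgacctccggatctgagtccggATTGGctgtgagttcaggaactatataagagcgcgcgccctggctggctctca
The members with a CCAAT box included genes that rose (H2-T23), fell (H2-Q4 and B2m) and did not pass. With 7 of 8 windows holding it, its presence cannot be compared between directions.

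The genes whose pattern over the 8 libraries was most like a member's were sought for B2m and H2-T23, by the root mean square difference of centred log2 CPM among 9227 genes with a mean of at least 10 CPM. For B2m they were Hbp1 (0.0228), a transcription factor, and Tuba1c (0.0332), an alpha-tubulin. Hbp1 held 47.5, 55.3, 54.3 and 52.3 CPM under corticosterone and 59.7, 60.0, 58.7 and 61.3 CPM in medium, with the same low corticosterone replicate 1 as B2m. For H2-T23 they were Pdlim4 (0.0398), a PDZ and LIM domain protein, and Khnyn (0.0403), a KH and NYN domain protein. Pdlim4 held 21.6, 21.9, 22.8 and 22.4 CPM against 17.9, 18.6, 15.3 and 17.3 CPM, and its lowest library, like that of H2-T23, was medium replicate 3. These genes were picked for likeness over the same 8 libraries, so a shared low library follows from the choice.

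Several members overlap other genes. Exons annotated on the opposite strand overlap those of H2-Q4, Tap1 (Psmb9, at 2.06 to 2.88 CPM), Tap2, Tapbp, Psmb8 and Nlrc5. The libraries are directional, but no source used here gives the strand setting of the counting, so how such reads were placed was not tested. Tapbp also overlaps Zbtb22 (37.2 to 40.8 CPM) on the same strand, over 149 bases, where strand does not separate the genes. How reads from there were placed was not tested either.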

How the data were processed

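RNA-seq of 8 bEnd3 libraries was used. Per the submitters' processing notes, bcl2fastq and kallisto 0.46.1 were run, with builds mm10 and GRCm38. Index, read length, strand setting and the summing to genes: not given in the sources used here. Deposited by the authors were estimated counts per gene, without normalization, and per library the estimated counts, effective lengths and TPM of transcripts.

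Genes were named through GENCODE M21. Estimated counts were rounded, filtered by filterByExpr, scaled by TMM and tested with edgeR 4.0.16 (robust quasi-likelihood F test, R 4.3.3), Benjamini-Hochberg over all genes tested, threshold 0.05. CPM use TMM-scaled totals, and SE is the log2 fold change divided by the square root of F. TPM alternatives used limma 3.58.1 on log2(TPM + 0.5) with mean TPM of at least 1, and DESeq2 1.42.0 was a further alternative. The method was tested on simulated data.

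The members and lists were chosen with earlier results of these data known. Named were the members, per list the top 2 rises and top 2 falls by p (all changed genes where 5 or fewer), Fkbp5, Tsc22d3 and the 2 genes most like B2m and H2-T23. H2-Q6, H2-T22, Gm10499, Lnpep, Canx, Erap1, Nfkb1, Nfya, Nfyb, Nfyc, Atf1, Tyk2, Ifnar2, Sel1l and the genes given as not passing lie outside this rule and were picked with their values known. The neighbouring families were added after seeing the data. Windows of H2-D1 and H2-T23 reach into exon 1 and are not printed. The windows of Tapbp and Psmb8 lie within the annotated span of their gene. No protein sequences were used. 1 listed gene is counted but not reported here.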

Additional observations from a re-analysis of the deposited data

Results flagged for a closer look

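H2-Q4 in corticosterone replicate 2, at 30.95 CPM, lay apart from the other corticosterone replicates (34.1 to 34.5 CPM): its gap to the nearest was 0.879 of the group's range, above Dixon's 95% critical value for 4 samples. 20 groups of 4 libraries were searched, and chance flags about 1 in 20.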

How the results depend on the processing

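Results were recomputed under other filters, scalings, tests and sets of libraries. All genes changed numbered 5327 (2590 higher, 2737 lower), and 4753 to 5089 with single libraries left out. On TPM in the 6 libraries they numbered 2709 with either pseudocount (0.5: 1156 higher and 1553 lower; 0.1: 1150 and 1559) and 2159 without a filter (1035 and 1124). Members higher numbered 2, not 1, without a filter (Nlrc5 joins), in the 6 libraries and with a term for corticosterone replicates 1 and 2, and 1 to 2 with single libraries left out. Members lower numbered 1, not 2, without a filter (B2m lost) and in the 3 TPM settings, 0 with the term, and 1 to 2 with single libraries left out. Without corticosterone replicates 1 and 2, 4 members changed on counts and 2 in each TPM setting. Genes changed over the class I lists numbered 34, and 17, 17 and 15 on TPM, beside 5327, 2709, 2709 and 2159 of all genes. The numbers tested are given list by list above, and 40.1% of all genes tested were called in 8 libraries.

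The sign of Tap1 turned under scaling by library size (-0.025), in the 6 libraries (-0.0058), with the term (-0.0062), on TPM (-0.0036, -0.0037 and -0.0036), without corticosterone replicates 2 and 3 in turn (-0.0029 and -0.0078), without medium replicates 3 and 4 in turn (-0.022 and -0.00059, of a range of -0.022 to 0.032 over the 8 left out), and in the 6 libraries with families summed (-0.0077) or neighbouring families summed (-0.010); none passed. H2-K1 turned on TPM (-0.17, -0.17 and -0.17). With all families linked by shared sequence summed, the value of the family holding H2-D1, H2-K1, H2-T23 and H2-Q4 was -0.0038 in 8 libraries (adjusted p = 0.954). In 6 libraries it was 0.085 (adjusted p = 0.0244), but that family also takes in unrelated genes. H2-Q4 read through its neighbouring family takes the value of the family's sum, 0.085, and 0.23 in the 6 libraries. H2-D1 made up 56.6% to 70.0% of that sum, so its sign there is not a reading of H2-Q4 alone. Why Tap1 and H2-K1 turned was not tested. Member counts are not given for summed families, where members share 1 value.

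The labels do not say whether replicate numbers pair the samples. Same-numbered libraries' deviations correlated at -0.038, 0.041, -0.082 and -0.069, and those of other pairs at -0.10 to 0.15. Such values cannot show whether the samples were paired. With the replicate block 4913 genes and the same number of members, 3, were called, and among named genes Ide lost its call (adjusted p = 0.0688). Of the members, Nlrc5 was the 1 whose counts were too low for the filter.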
